A study of Mus musculus with 7 samples.

Results

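The enzymes that make cholesterol and fatty acids, and the genes that control them, were followed in mouse bone marrow-derived macrophages that had or lacked Tgm2 (transglutaminase 2, an enzyme that cross-links proteins). The set was a list of 35 genes, of 23337 in the deposited tables, and was chosen with earlier results of these data known. Counts set beside the share of all genes are therefore a description. The list held 19 sterol synthesis enzymes, 7 genes of SREBP control and 9 fatty acid synthesis and desaturation enzymes. All 35 were found, Msmo1 under its older name Sc4mol. A total of 34 passed the filter of a mean of at least 1 TPM over the libraries (TPM, a level per transcript length that sums to the same total in each library), as did 11096 genes in all. The exception was Elovl6, which elongates fatty acids.

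Marrow came from male mice of 6 to 8 weeks, either wild type or Tgm2 knockout, and was grown for 7 days in 25 ng/ml M-CSF, the growth factor that turns marrow precursors into macrophages, so all 4 groups share that treatment. The groups were unstimulated wild type (WT M0, n = 2), unstimulated knockout (KO M0, n = 1), wild type given 10 ng/ml lipopolysaccharide for 6 hours (WT LPS, n = 2) and knockout given the same (KO LPS, n = 2). Lipopolysaccharide (LPS) is a bacterial cell wall component that activates macrophages through Toll-like receptor 4. The labels do not say whether replicates came from separate mice or cultures, so the p-values measure only the spread between these libraries, which may be technical. The labels also do not state how the knockout was made or its strain background, nor whether it is restricted to a cell type.

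Cells make cholesterol from acetyl-CoA by way of mevalonate, isoprenoids, squalene and lanosterol. The transcription factors SREBP2 and SREBP1, encoded by Srebf2 and Srebf1, switch on these enzymes: when sterols are low, SCAP carries the SREBP precursors from the endoplasmic reticulum to the Golgi, where they are cleaved, and when sterols are high the INSIG proteins hold SCAP back. SREBP1 is best known for fatty acid genes and SREBP2 for sterol genes, and macrophages are known to remodel both pathways after Toll-like receptor signals.

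The labels were checked first. Tgm2 stood at 433 and 368 TPM (WT M0), 50.7 (KO M0), 233 and 199 (WT LPS) and 19.4 and 19.2 (KO LPS), so the groups followed the genotype labels. Xist, the RNA of the inactive X chromosome in female cells, was at 47.2 and 55.4 TPM in the libraries labelled WT LPS and at most 0.00535 TPM in the others, and the Y-linked Kdm5d was lower there (3.42 and 5.00 TPM, against 8.75 to 14.5). The Y-linked Ddx3y, Eif2s3y and Uty were also lower there but still present, as for Eif2s3y (32.8 and 37.2 TPM, against 66.1 to 78.3). Each WT LPS library thus held Xist and Y-linked RNA together, which goes against the male label. In every comparison with WT LPS the sex make-up of the cells and the condition cannot be told apart. KO LPS vs KO M0 does not compare the WT LPS libraries, and 2 of the sterol enzymes, Nsdhl and Ebp, are X-linked. The median absolute log2 difference between the WT M0 replicates was 0.221, near that between the WT LPS (0.196) and KO LPS (0.197) replicates. WT M0 replicate 2 and KO M0 were closer than any replicates, at 0.0959, although their genotypes differ. The macrophage markers were all 7 present, with summed levels of 33860 to 48700 TPM, and the adipocyte markers Adipoq, Plin1 and Lep were at 0 in every library. The endothelial markers summed to 38.5 and 39.3 TPM in the KO LPS libraries and to between 6.33 and 13.1 TPM elsewhere. In KO LPS this was almost all Kdr, at 37.9 and 38.9 TPM. Cdh5 was at 0.634 and 0.423 TPM there, 0.433 and 0.121 TPM in WT LPS and 1.22 to 2.38 TPM in the unstimulated libraries. Emcn and Tek were at 0 in KO LPS, and in WT LPS Emcn was at 0 and Tek at 0 and 0.0489 TPM. The part of endothelial cells in the results was not tested. In these bulk samples, fewer cells of a type and less RNA per cell cannot be told apart.

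The sterol arm stood high in WT LPS alone. The 19 enzymes together made up 351 and 404 TPM (WT M0), 406 (KO M0), 1445 and 1816 (WT LPS) and 441 and 481 (KO LPS). The WT LPS mean was 4.32 times that of WT M0, whereas the KO LPS mean was 1.14 times the KO M0 level and 0.283 times the WT LPS mean. The sums of the KO LPS libraries lay just above the unstimulated ones and did not overlap those of WT LPS. This small rise in the knockout did not hold along the arm. The KO LPS mean was 1.86 times KO M0 for the mevalonate steps, where Fdps went from 22.8 to a mean of 96.7 TPM. For the squalene and lanosterol steps it was 0.818 times KO M0, and for the steps after lanosterol 0.802 times. All differences between groups below are from limma on log2(TPM + 1), with Benjamini-Hochberg adjustment over the 11096 genes, and a call means an adjusted p under 0.05; this scale understates the change of low genes.

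With LPS in wild type, 14 of the 19 sterol enzymes rose and 1 fell, against 15.0% of all genes tested that rose and 29.6% that fell. The median log2 change of the arm was 2.19, which is 2.40 above the median gene (-0.21). Other scalings move the median gene by 0.22 and 0.18, so the median changes of each arm with LPS are also given relative to it. Without the X-linked enzymes the counts were 13 and 0 of 17. With LPS in the knockout, 5 of the 19 rose and 3 fell, against 13.8% and 24.3% of all genes, and the median was 0.24, or 0.48 above the median gene. With the libraries scaled by median ratios, or by quantiles, 8 rose in place of 5. Over all 34 genes the split in the knockout was 5 higher and 9 lower, 9 and 9 with median-ratio scaling and 8 and 9 with quantile normalization, and fitted without both WT LPS libraries it was 4 and 9. Between the LPS-treated groups, 15 of 19 were lower in the knockout and 0 higher (16 and 0 at an unadjusted p under 0.05), against 2.58% and 4.59% of all genes, with a median of -1.75. With no low-value filter, Acat2, Mvk, Mvd, Nsdhl and Dhcr7 lost this call. Over all 34 genes, 22 were lower, and 13 with no filter. Without LPS, 0 of 34 genes of the whole set differed between the genotypes by limma (0 at an unadjusted p under 0.05, the lowest being 0.148), against 0.00901% of all genes, which is 1 gene, Tgm2. The log2 differences of the 34 ranged from -0.45 to 0.39, with 1 KO M0 library.

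**Figure D1:**
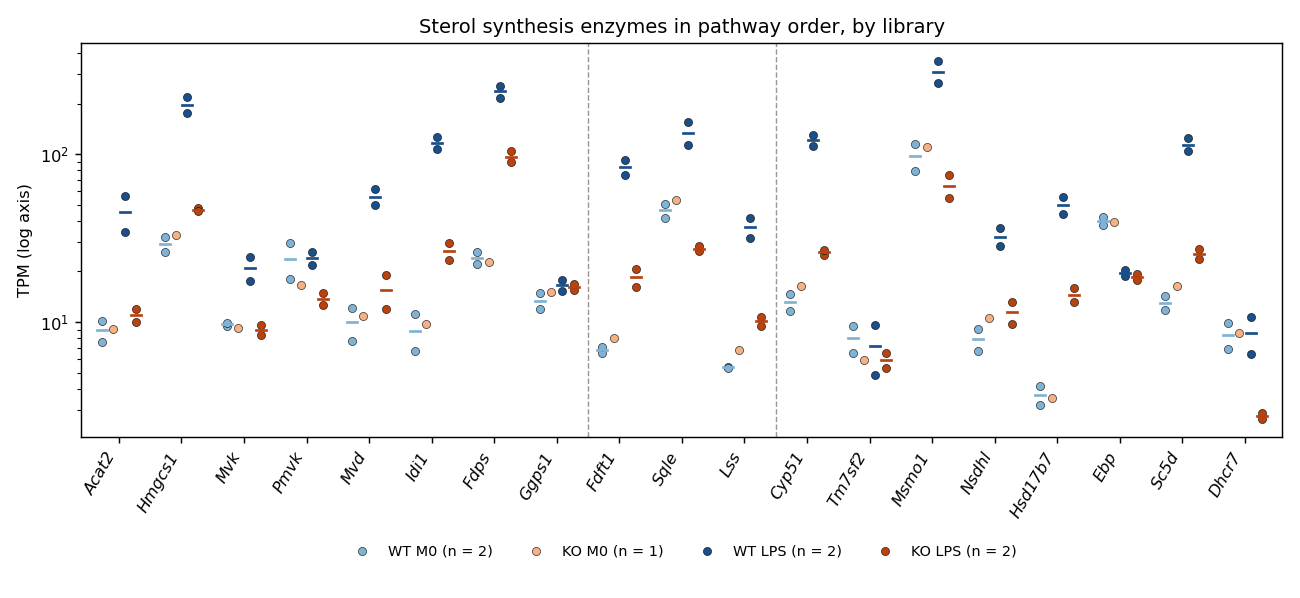
TPM (log axis) of the 19 sterol synthesis enzymes in pathway order in each of the 7 libraries, with dashed lines before the squalene steps and before the steps after lanosterol; points are libraries and bars the means of groups of 2. The WT LPS points stand above all others for 14 enzymes, for example Hmgcs1 at 175 and 219 TPM, whereas those of Ebp are below the unstimulated libraries. The share of all genes with WT LPS above all other libraries was not counted.

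The 8 enzymes from acetyl-CoA to isoprenoids summed to 126 to 130 TPM without LPS, 642 and 783 (WT LPS) and 230 and 241 (KO LPS). Hmgcs1, the synthase that makes HMG-CoA, was at 26.1 and 32.0 TPM (WT M0), 33.2 (KO M0), 175 and 219 (WT LPS) and 47.8 and 45.6 (KO LPS). The WT LPS libraries were above all others, and the KO LPS libraries lay between them and the unstimulated ones. Its log2 change with LPS was 2.72 (SE 0.18, adjusted p 1.17e-06) in wild type and 0.48 (SE 0.22, adjusted p 0.109, and 0.0147 with median-ratio scaling or 0.0395 with quantile normalization) in the knockout, and KO LPS was lower than WT LPS by 2.04 (log2 difference -2.04, SE 0.18, adjusted p 1.54e-04). Idi1, which isomerizes isopentenyl diphosphate, was at 6.68 and 11.1 TPM (WT M0), 9.70 (KO M0), 107 and 127 (WT LPS) and 23.5 and 29.7 (KO LPS). It rose in both genotypes, by 3.61 (SE 0.23, adjusted p 1.14e-06) and 1.36 (SE 0.29, adjusted p 0.00404), and was lower in KO LPS than in WT LPS (-2.10, SE 0.23, adjusted p 4.90e-04). Fdps, farnesyl diphosphate synthase, was at 26.1 and 22.3 TPM (WT M0), 22.8 (KO M0), 217 and 256 (WT LPS) and 89.5 and 104 (KO LPS). The KO LPS libraries of Fdps were well above the unstimulated ones, and its log2 change in the knockout (2.03, SE 0.21, adjusted p 3.55e-05) was the highest of the 34 genes there; in wild type it was 3.24 (SE 0.17, adjusted p 3.21e-07).

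Acat2, which condenses acetyl-CoA, and Mvd, mevalonate diphosphate decarboxylase, followed the same order with lower levels. Acat2 was at 7.61 and 10.2 TPM (WT M0), 9.09 (KO M0), 34.3 and 56.2 (WT LPS) and 9.95 and 12.0 (KO LPS). Mvd was at 12.2 and 7.71 TPM (WT M0), 10.8 (KO M0), 49.6 and 61.9 (WT LPS) and 19.02 and 11.9 (KO LPS). Only WT LPS was clear of the other libraries of Mvd. Mvk, mevalonate kinase, was at 9.51 and 9.86 TPM (WT M0), 9.16 (KO M0), 17.7 and 24.5 (WT LPS) and 9.61 and 8.42 (KO LPS), the smallest rise of the 14 called enzymes (log2 1.03, SE 0.21, adjusted p 0.00237). KO LPS was lower than WT LPS in Acat2 (-1.91, adjusted p 0.00121), Mvd (-1.81, adjusted p 0.00233) and Mvk (-1.13, adjusted p 0.0083). With no low-value filter these 3 differences missed the threshold (adjusted p 0.0582, 0.0756 and 0.0768), and Mvk also did so without replicate 2 of WT LPS (0.0750) or of KO LPS (0.0708).

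The other isoprenoid enzymes showed no called change in any comparison. Pmvk, phosphomevalonate kinase, was at 29.5 and 18.0 TPM (WT M0), 16.6 (KO M0), 26.1 and 21.8 (WT LPS) and 14.9 and 12.7 (KO LPS); its KO LPS libraries were below the other 5, with a log2 difference from WT LPS of -0.75 (SE 0.24, adjusted p 0.0944). Ggps1, which makes geranylgeranyl diphosphate for protein prenylation rather than sterols, was at 12.0 to 17.8 TPM in every library, and its log2 difference between KO LPS and WT LPS was -0.02 (SE 0.19). Its change with LPS in wild type, 0.29 (adjusted p 0.24), passed the threshold with median-ratio scaling (0.0252) and with quantile normalization (0.0248).

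All 3 enzymes that commit isoprenoids to sterols rose with LPS in wild type and were lower in KO LPS than in WT LPS. Fdft1, squalene synthase, was at 6.52 and 7.07 TPM (WT M0), 8.03 (KO M0), 75.3 and 92.0 (WT LPS) and 16.2 and 20.7 (KO LPS). It rose by 3.43 (SE 0.19, adjusted p 4.76e-07) in wild type and by 1.10 (SE 0.24, adjusted p 0.00468) in the knockout. Fdft1 overlaps the protease gene Ctsb in the annotation, at 2720 to 6840 TPM and lower in the LPS libraries, and whether reads were counted by strand is not given in the sources used here. Sqle, squalene epoxidase, was at 41.6 and 50.7 TPM (WT M0), 53.6 (KO M0), 114 and 155 (WT LPS) and 26.5 and 28.3 (KO LPS). Its LPS changes had opposite signs, 1.51 (SE 0.19, adjusted p 1.12e-04) in wild type and -0.94 (SE 0.23, adjusted p 0.00923) in the knockout, so the KO LPS libraries were below every unstimulated one. Lss, which closes squalene epoxide into lanosterol, was at 5.42 and 5.33 TPM (WT M0), 6.77 (KO M0), 31.4 and 41.9 (WT LPS) and 10.8 and 9.51 (KO LPS). Its knockout change of 0.52 (adjusted p 0.125) passed with median-ratio scaling (0.0245) and quantile normalization (0.0142). KO LPS minus WT LPS was -2.12 for Fdft1 (SE 0.19, adjusted p 1.59e-04), -2.24 for Sqle (SE 0.19, adjusted p 1.43e-04) and -1.75 for Lss (SE 0.20, adjusted p 5.54e-04).

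After lanosterol, 5 of 8 enzymes rose in wild type with LPS, 1 fell and 2 were not called. Cyp51, the lanosterol demethylase, was at 11.7 and 14.7 TPM (WT M0), 16.3 (KO M0), 112 and 130 (WT LPS) and 25.2 and 26.9 (KO LPS). Sc5d, which introduces a sterol ring desaturation, was at 11.8 and 14.3 TPM (WT M0), 16.5 (KO M0), 104 and 124 (WT LPS) and 23.9 and 27.1 (KO LPS). The groups of these genes were ordered alike, with both unstimulated groups lowest and WT LPS highest. Cyp51 rose in wild type (3.11, SE 0.18, adjusted p 5.35e-07) and in the knockout (0.64, SE 0.22, adjusted p 0.0419). The latter call was lost without any of WT LPS replicate 1 (0.0567), WT LPS replicate 2 (0.0570), KO LPS replicate 1 (0.0757) or 2 (0.127), with the compared groups alone (0.0631) and with no filter (0.0665). Sc5d rose by 3.03 in wild type (SE 0.18, adjusted p 6.90e-07), and its knockout change of 0.60 (adjusted p 0.0575) passed with median-ratio scaling (0.00853) and quantile normalization (0.0107). KO LPS was lower than WT LPS by a log2 difference of -2.17 for Cyp51 (SE 0.18, adjusted p 1.42e-04) and -2.11 for Sc5d (SE 0.18, adjusted p 1.54e-04).

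Msmo1, the methyl sterol oxidase, had the highest level of the arm in each group except KO LPS, where Fdps was higher: 78.9 and 115 TPM (WT M0), 110 (KO M0), 264 and 357 (WT LPS) and 54.8 and 74.7 (KO LPS). Its KO LPS libraries were the lowest of the 7, although the fall from KO M0 missed the threshold (-0.78, SE 0.28, adjusted p 0.0525). It passed without WT M0 replicate 1 (0.0485), WT M0 replicate 2 (0.0489) or KO LPS replicate 2 (0.0315). Msmo1 rose in wild type (1.67, SE 0.23, adjusted p 2.17e-04) and KO LPS was lower than WT LPS (-2.24, SE 0.23, adjusted p 3.00e-04). Hsd17b7, a sterol ketone reductase, rose from a low level: 3.22 and 4.14 TPM (WT M0), 3.54 (KO M0), 44.2 and 55.5 (WT LPS) and 13.1 and 15.9 (KO LPS). The WT LPS mean was 13.5 times that of WT M0 and the KO LPS mean 4.10 times the KO M0 level. Hsd17b7 rose in both (3.44, SE 0.21, adjusted p 7.27e-07, and 1.77, SE 0.26, adjusted p 3.68e-04) and was lower in KO LPS than in WT LPS (-1.71, SE 0.21, adjusted p 7.39e-04). The X-linked Nsdhl, a sterol decarboxylase, was at 6.73 and 9.13 TPM (WT M0), 10.6 (KO M0), 28.4 and 36.1 (WT LPS) and 13.2 and 9.79 (KO LPS). It was lower in KO LPS than in WT LPS (-1.42, SE 0.22, adjusted p 0.00369), a call that was lost with no filter (0.0703).

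Dhcr7, Ebp and Tm7sf2 departed from this order. Dhcr7, the terminal reductase, was at 6.87 and 9.85 TPM (WT M0), 8.56 (KO M0), 6.48 and 10.7 (WT LPS) and 2.64 and 2.87 (KO LPS). WT LPS overlapped WT M0 (log2 change 0.01, SE 0.26), and only the KO LPS libraries were low. Dhcr7 fell in the knockout (-1.35, SE 0.32, adjusted p 0.00686) and was lower in KO LPS than in WT LPS (-1.32, SE 0.26, adjusted p 0.0120). The latter call was lost without either KO LPS library (0.0598 and 0.0552) or WT LPS replicate 2 (0.0895), and both calls with no filter (0.0541 and 0.125). The X-linked Ebp, a sterol isomerase, was at 42.1 and 37.6 TPM (WT M0), 39.3 (KO M0), 18.9 and 20.5 (WT LPS) and 19.4 and 17.7 (KO LPS). LPS-treated libraries of both genotypes were at about the same low level: Ebp fell by 0.98 in wild type (SE 0.17, adjusted p 9.49e-04) and by 1.05 in the knockout (SE 0.21, adjusted p 0.00276), and KO LPS minus WT LPS was -0.08 (SE 0.17, adjusted p 0.858). Tm7sf2, a sterol reductase, was at 4.84 to 9.64 TPM over the libraries and was not called in any comparison; its LPS groups overlapped, and KO M0 (5.91 TPM) was below WT M0 (6.57 and 9.42 TPM).

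The difference between KO LPS and WT LPS, in which genotype and the unlike Xist cannot be told apart, ran along most of the pathway. The KO LPS mean was between 0.2 and 0.3 times the WT LPS mean in 11 of the 19 enzymes, from 0.204 in Sqle to 0.291 in Hsd17b7. The log2 difference between KO LPS and WT LPS ranged from -2.24 to -0.02, with Ggps1 and Ebp nearest to 0. The change with LPS ranged from -0.98 in Ebp to 3.61 in Idi1 in wild type, and from -1.35 in Dhcr7 to 2.03 in Fdps in the knockout.

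**Figure D2:**
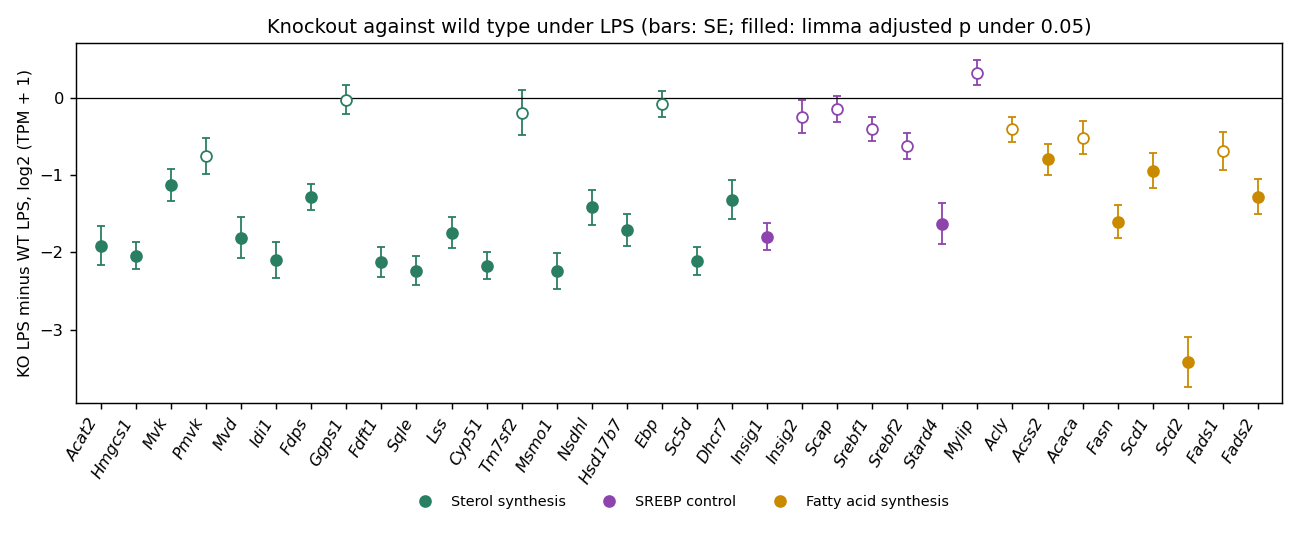
Log2 difference in TPM + 1 between KO LPS (n = 2) and WT LPS (n = 2) for the 34 tested genes, with limma standard errors as bars and filled points for adjusted p under 0.05. Most sterol enzymes sit between -2.24 and -1.13, Scd2 is lowest at -3.42, and Mylip is the one point above 0, at 0.33 and not called.

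Of the genes listed under SREBP control, not all of which set SREBP activity, 3 of 7 rose and 3 fell with LPS in wild type. In the knockout 0 rose and 3 fell, and 2 were lower in KO LPS than in WT LPS. The background was 15.0% higher and 29.6% lower with LPS in wild type, 13.8% and 24.3% in the knockout, and 2.58% lower between the LPS groups. The medians of the 7 were 0.42, -0.09 and -0.41, or 0.62, 0.15 and -0.43 relative to the median gene. Insig1, which retains SCAP and is itself an SREBP target, was at 35.5 and 43.8 TPM (WT M0), 46.8 (KO M0), 158 and 193 (WT LPS) and 51.0 and 48.02 (KO LPS). It rose in wild type (2.12, SE 0.18, adjusted p 5.70e-06), while its KO LPS level was close to KO M0 (0.08, SE 0.22, adjusted p 0.804) and lower than WT LPS (-1.80, SE 0.18, adjusted p 2.10e-04). Stard4, a carrier of sterols between membranes, was at 6.76 and 9.05 TPM (WT M0), 10.4 (KO M0), 24.2 and 42.1 (WT LPS) and 8.39 and 11.1 (KO LPS). KO LPS libraries of Stard4 overlapped the unstimulated range and were lower than WT LPS (-1.63, SE 0.27, adjusted p 0.00488), a call lost with no filter (0.101). Srebf2 was at 72.4 and 82.0 TPM (WT M0), 84.2 (KO M0), 194 and 178 (WT LPS) and 134 and 108 (KO LPS). It rose in wild type (1.26, SE 0.17, adjusted p 1.56e-04); its knockout change was 0.51 (adjusted p 0.0716, and 0.0192 with median-ratio scaling or 0.0481 without KO LPS replicate 2), and KO LPS minus WT LPS was -0.62 (SE 0.17, adjusted p 0.0508).

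Of the remaining control genes, Srebf1, Scap and Mylip fell with LPS and Insig2 was not called. Srebf1 was at 81.0 and 91.2 TPM (WT M0), 87.4 (KO M0), 61.97 and 65.5 (WT LPS) and 48.5 and 47.2 (KO LPS). Its groups did not overlap within either genotype, but the wild-type fall (-0.43, SE 0.15, adjusted p 0.0452) lost its call without any single LPS or WT M0 library (adjusted p 0.0544 to 0.201) and with median-ratio scaling (-0.19, 0.264), whereas the knockout fall was -0.86 (SE 0.19, adjusted p 0.0052). Scap was at 32.8 to 35.3 TPM in the unstimulated libraries and 17.8 to 21.5 TPM in the LPS ones; it fell by 0.66 in wild type (adjusted p 0.00904, and 0.0552 without WT LPS replicate 1) and by 0.86 in the knockout (adjusted p 0.00826). Mylip, which marks lipoprotein receptors for degradation and is a target of LXR rather than SREBP, was at 78.5 to 84.3 TPM in unstimulated libraries, 29.5 and 24.7 (WT LPS) and 35.4 and 32.9 (KO LPS). It fell in both genotypes (-1.55, SE 0.17, adjusted p 3.43e-05, and -1.28, SE 0.20, adjusted p 6.69e-04). Insig2, the other INSIG gene, was at 17.3 to 30.1 TPM throughout and was not called; its wild-type change of 0.42 (adjusted p 0.14) passed with median-ratio scaling (0.0243) and quantile normalization (0.0358).

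**Figure D3:**
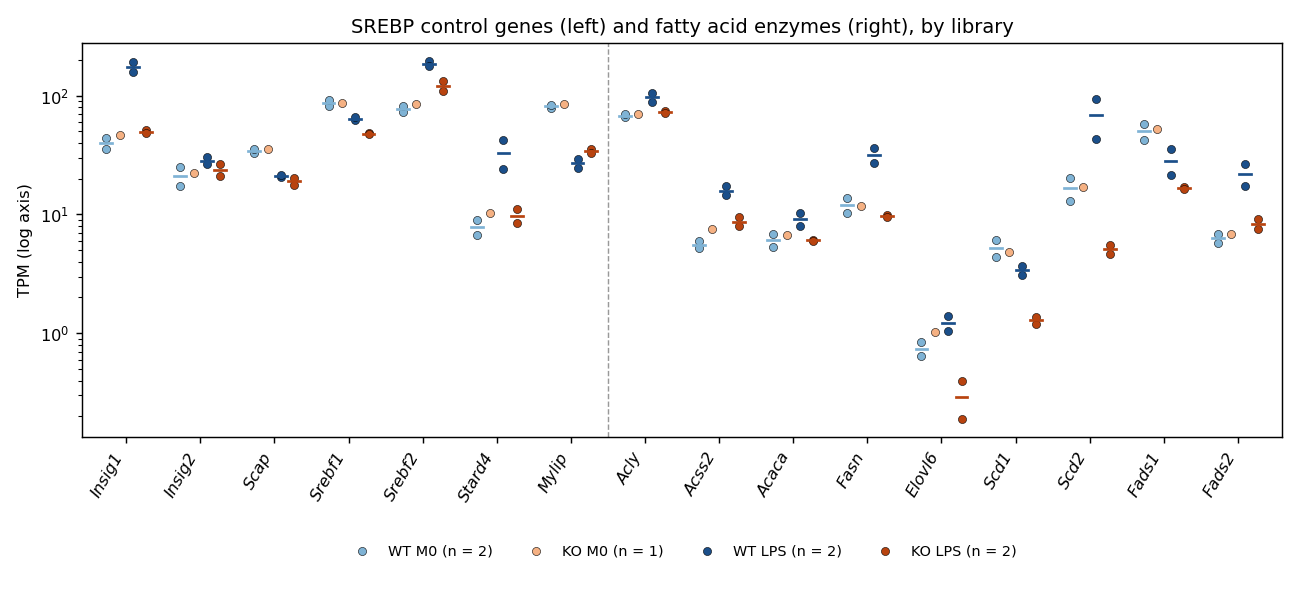
TPM (log axis) of the 7 SREBP control genes and, right of the dashed line, the 9 fatty acid enzymes in each of the 7 libraries; points are libraries and bars the means of groups of 2. Insig1, Stard4, Fasn and Scd2 are highest in WT LPS, while Mylip and Scap are lower in LPS libraries of both genotypes; Elovl6, at 0.19 to 1.40 TPM, was not tested.

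The fatty acid arm was also highest in WT LPS. Its 9 genes summed to 154 and 187 TPM (WT M0), 179 (KO M0), 227 and 328 (WT LPS) and 131 and 127 (KO LPS), so the KO LPS mean was 0.465 times that of WT LPS and 0.723 times the KO M0 level. KO LPS was the lowest group in this sum, but the fall from KO M0 lay in the desaturases. The 5 synthesis enzymes, Elovl6 included, summed to a mean of 91.9 TPM in WT M0, 97.3 in KO M0 and a mean of 97.6 in KO LPS. Their KO LPS mean was 1.003 times KO M0 and 0.628 times WT LPS. The 4 desaturases went from 81.2 TPM in KO M0 to a mean of 31.4 in KO LPS. That was 0.387 times KO M0 and 0.257 times the WT LPS mean. With LPS in wild type, 5 of the 8 tested genes rose and 1 fell (median 0.93, or 1.14 above the median gene). In the knockout 0 rose and 3 fell (median -0.19, or 0.05 above the median gene), and 5 of 8 were lower in KO LPS than in WT LPS with 0 higher (median -0.87). The shares of all genes were 15.0% higher and 29.6% lower in wild type, 13.8% and 24.3% in the knockout, and 2.58% lower and 4.59% higher between the LPS groups. With no low-value filter, or when replicate 2 of either LPS group was left out, only 2 of those 5 were called, and without KO LPS replicate 1, 3 were.

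Among the 4 tested synthesis enzymes, Fasn had the largest difference between the LPS groups. Fasn, fatty acid synthase, was at 10.3 and 13.8 TPM (WT M0), 11.7 (KO M0), 27.2 and 36.5 (WT LPS) and 9.95 and 9.43 (KO LPS). It rose in wild type (1.33, SE 0.21, adjusted p 5.77e-04), and KO LPS, below all 5 other libraries, was lower than WT LPS (-1.61, SE 0.21, adjusted p 0.00128). Acss2, which makes acetyl-CoA from acetate, was at 5.19 and 5.94 TPM (WT M0), 7.50 (KO M0), 17.2 and 14.5 (WT LPS) and 7.94 and 9.49 (KO LPS). Acss2 rose in wild type (1.36, SE 0.20, adjusted p 3.30e-04) and was lower in KO LPS than in WT LPS (-0.79, SE 0.20, adjusted p 0.0399). The latter call was lost when any one WT M0, WT LPS or KO LPS library was left out (adjusted p 0.0691 to 0.196), with no filter (0.126) and with the compared groups alone (0.0650). Acly, which makes acetyl-CoA from citrate, was at 65.5 and 69.5 TPM (WT M0), 70.4 (KO M0), 88.5 and 106 (WT LPS) and 73.8 and 71.9 (KO LPS). Its rise in wild type (0.51, SE 0.16, adjusted p 0.0234) was lost without WT M0 replicate 1 (0.0875), WT M0 replicate 2 (0.0518) or WT LPS replicate 2 (0.181). Acaca, acetyl-CoA carboxylase, was at 5.27 to 10.3 TPM, highest in WT LPS, and was not called (0.53, SE 0.21, adjusted p 0.0682 in wild type); that change passed with median-ratio scaling (0.0099) and quantile normalization (0.00378). Elovl6 was at 0.84 and 0.64 TPM (WT M0), 1.03 (KO M0), 1.05 and 1.40 (WT LPS) and 0.19 and 0.40 (KO LPS).

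The desaturases, 4 genes on chromosome 19, diverged from each other. Scd2, a stearoyl-CoA desaturase, was at 12.9 and 20.1 TPM (WT M0), 16.9 (KO M0), 43.3 and 93.8 (WT LPS) and 5.50 and 4.67 (KO LPS). WT LPS was above and KO LPS below every unstimulated library, and the WT LPS mean was 13.5 times that of KO LPS (KO LPS minus WT LPS -3.42, SE 0.33, adjusted p 1.78e-04). Scd2 rose in wild type (1.92, SE 0.33, adjusted p 8.44e-04) and fell in the knockout (-1.56, SE 0.40, adjusted p 0.0110, and 0.0919 with no filter). Its relative Scd1 was at 4.41 and 6.05 TPM (WT M0), 4.82 (KO M0), 3.10 and 3.69 (WT LPS) and 1.20 and 1.37 (KO LPS). Scd1 was not called with LPS in wild type (-0.49, SE 0.22, adjusted p 0.0962), fell in the knockout (-1.35, SE 0.27, adjusted p 0.00307) and was lower in KO LPS than in WT LPS (-0.94, SE 0.22, adjusted p 0.0304). That last call was lost without WT LPS replicate 1 (0.0593), WT LPS replicate 2 (0.164), KO LPS replicate 1 (0.128) or 2 (0.108), and with no filter (0.112). Scd1 and Scd2 are similar in sequence, and how shared reads were assigned is not given in the sources used here, so their split is uncertain.

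Fads1 and Fads2, the desaturases of polyunsaturated fatty acids, also differed. Fads2 was at 6.84 and 5.76 TPM (WT M0), 6.91 (KO M0), 17.5 and 26.7 (WT LPS) and 9.10 and 7.61 (KO LPS). It rose in wild type (1.64, SE 0.23, adjusted p 2.53e-04) and was lower in KO LPS than in WT LPS (-1.28, SE 0.23, adjusted p 0.00756), a call lost without replicate 2 of WT LPS (0.0645) or of KO LPS (0.0677) and with no filter (0.0962). Fads1 was at 42.7 and 58.1 TPM (WT M0), 52.6 (KO M0), 21.3 and 35.4 (WT LPS) and 17.0 and 16.3 (KO LPS). LPS libraries of both genotypes were below the unstimulated ones: Fads1 fell in the knockout (-1.60, SE 0.30, adjusted p 0.00186) and in wild type (-0.84, SE 0.24, adjusted p 0.0173). The wild-type call was lost without WT M0 replicate 2 (0.145) or WT LPS replicate 1 (0.168), with median-ratio scaling (0.0534) and with no filter (0.0876). Fads1 was not called between KO LPS and WT LPS (-0.69, adjusted p 0.137), but was without WT LPS replicate 1 (0.0396).

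Whether the LPS change differed between genotypes was tested directly, as the knockout change minus the wild-type change. It was lower in 11 of 19 sterol enzymes, in 1 of 7 control genes (Insig1) and in 1 of 8 fatty acid genes (Scd2), and higher in 0 of 34 (at an unadjusted p under 0.05, 23 were lower and 0 higher), against 0.523% of all genes lower and 0.847% higher. The medians were -1.95, -0.43 and -1.01. Cyp51 had a difference of -2.47 (SE 0.28, adjusted p 0.00497), Sc5d of -2.43 (SE 0.29, adjusted p 0.00516), Sqle of -2.46 (SE 0.30, adjusted p 0.00583) and Hmgcs1 of -2.24 (SE 0.28, adjusted p 0.00617). Their KO M0 minus WT M0 differences were 0.30, 0.32, 0.22 and 0.19. The LPS-treated groups that enter the test are also those with unlike Xist. Fdps (-1.20, SE 0.27) did not pass, at an adjusted p of 0.0672. Either without WT M0 replicate 1 or unfiltered for low values, 0 of the 13 were called by limma, although each kept its direction (adjusted p of 0.0707 to 0.244 and 0.0881 to 0.256). The test rests on 1 KO M0 library, whose spread is taken from the other groups.

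**Figure D4:**
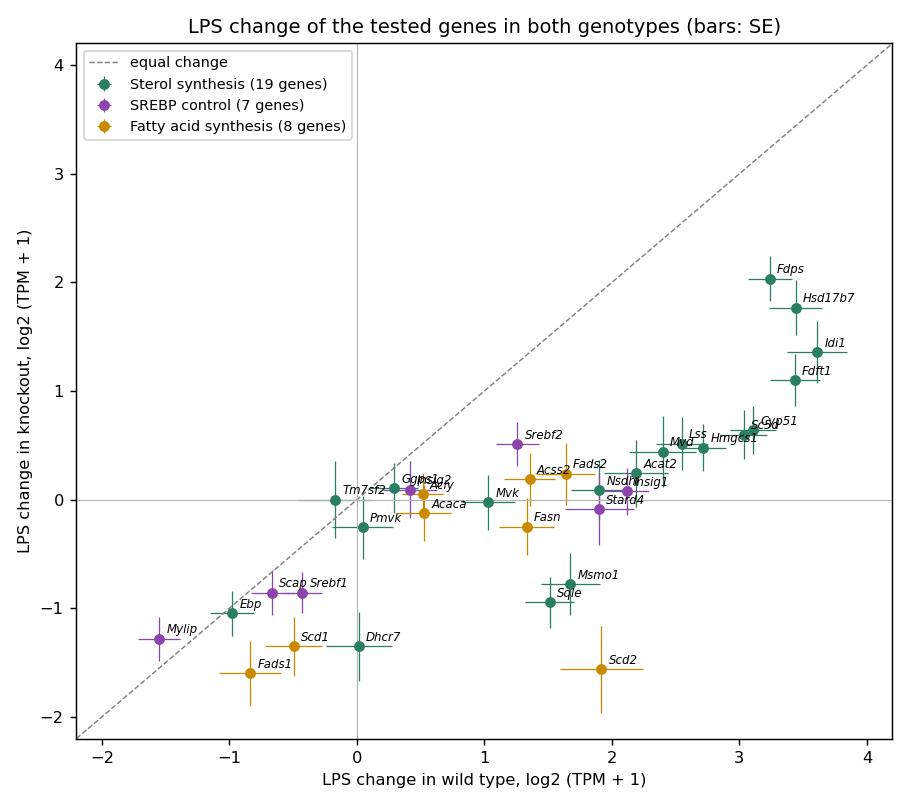
Log2 change of TPM + 1 with LPS in wild type (horizontal, n = 2 against 2) and in the knockout (vertical, n = 2 against 1) for the 34 tested genes, with limma standard errors; the dashed line marks equal change. Most sterol enzymes lie far below the line, for example Idi1 at 3.61 and 1.36, while Ebp lies near it at -0.98 and -1.05.

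The starts of these genes were searched for SREBP-related motifs, because the enzymes moved together. SREBP binds sterol regulatory elements (SRE) and is known to act with NF-Y, which binds CCAAT boxes. RefSeq windows of GRCm38.p6 were at hand for 28 of the 35 genes (not for Fdps, Fdft1, Sqle, Stard4, Scd1, Scd2 and Fads1), and the 250 bases before the start were searched on both strands. The SRE core TCACCCCAC, with GTGGGGTGA as its other strand, was in 1 of 28, Hmgcs1, against 0.612% of 8822 tested genes with a window. Allowing a free base at the fifth position (TCACNCCAC) gave the same gene, against 1.17%. The CCAAT box, or ATTGG on the other strand, was in 15 of 16 sterol enzymes (93.8%), 5 of 6 control genes and 2 of 6 fatty acid genes, against 40.5% of tested genes, and the one sterol enzyme without it was Acat2. In Fasn the letters CCAAT and ATTGG overlap at one place and count as a match on each strand. The palindromic E-box TCACGTGA was in 0 of 28, against 1.95%. A match is a description and not a binding site, and no match says only that these letters are not in this window.

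Stretches before 8 starts are shown for mevalonate and post-lanosterol enzymes, Insig1 and the fatty acid arm (Acss2), with the SRE core and the CCAAT boxes (CCAAT or ATTGG) in capitals, read 5′ to 3′ on the strand of the gene. Hmgcs1 is shown at length because it holds both motifs. Its SRE core ends 129 bases before the start and lies 34 bases from the nearest of its 3 CCAAT boxes. Ebp, which fell with LPS, is shown beside genes that rose. All lie before the first exon of their gene (Insig1's within the long noncoding gene Gm35223, the others in no other RefSeq gene).
Hmgcs1 chr13:119690101-119690330 (plus strand, GRCm38.p6): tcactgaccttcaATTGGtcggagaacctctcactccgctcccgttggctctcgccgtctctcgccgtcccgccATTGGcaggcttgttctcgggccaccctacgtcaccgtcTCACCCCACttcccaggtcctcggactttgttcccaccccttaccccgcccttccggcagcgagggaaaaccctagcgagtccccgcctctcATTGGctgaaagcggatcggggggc
Idi1 chr13:8885572-8885605 (plus strand, GRCm38.p6): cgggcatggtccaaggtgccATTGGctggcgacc
Cyp51 chr5:4104702-4104746 (minus strand, GRCm38.p6): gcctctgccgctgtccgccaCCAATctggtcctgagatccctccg
Msmo1 chr8:64733609-64733653 (minus strand, GRCm38.p6): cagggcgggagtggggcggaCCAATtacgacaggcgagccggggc
Sc5d chr9:42264301-42264344 (minus strand, GRCm38.p6): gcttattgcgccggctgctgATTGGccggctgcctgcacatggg
Ebp chrX:8193543-8193587 (minus strand, GRCm38.p6): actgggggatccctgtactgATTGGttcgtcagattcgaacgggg
Insig1 chr5:28071176-28071220 (plus strand, GRCm38.p6): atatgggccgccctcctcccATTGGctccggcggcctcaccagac
Acss2 chr2:155517950-155517994 (plus strand, GRCm38.p6): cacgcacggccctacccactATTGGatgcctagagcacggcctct
Among these 8 the box was nearest to the start in Idi1 (10 bases before it) and farthest in Insig1 (212 bases). It was present both in Cyp51, which rose, and in Ebp, which fell, so its presence did not separate the directions.

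**Figure D5:**
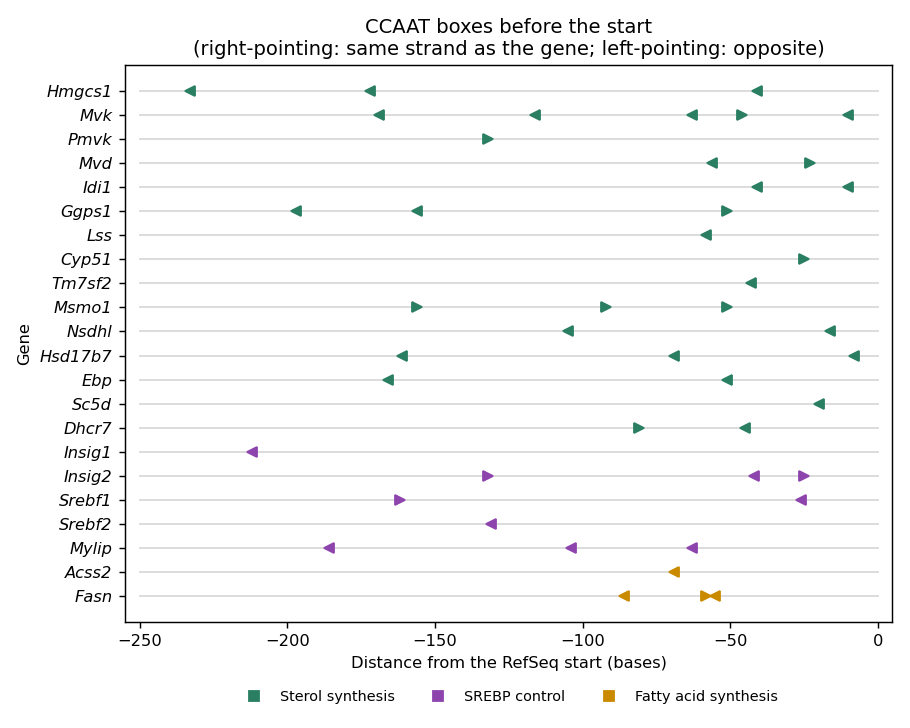
Positions of CCAAT boxes in the 250 bases before the RefSeq start of the 22 genes that hold one, by arm; the horizontal axis is the distance from the start in bases and the direction of the triangle gives the strand. The nearest box lies within 58 bases of the start in every sterol enzyme shown except Pmvk (132 bases), whereas that of Insig1 is at 212 bases.

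Other genes of the pathways were read from lists that were also chosen with earlier results of these data known. Of 13 further genes of sterol synthesis and handling, 4 rose and 2 fell with LPS in wild type, 1 rose and 4 fell in the knockout, and 3 were lower in KO LPS, against 15.0% and 29.6%, 13.8% and 24.3%, and 2.58% of all genes. Aacs, which makes acetoacetyl-CoA from ketone bodies, was at 13.8 and 15.0 TPM (WT M0), 16.6 (KO M0), 50.4 and 56.5 (WT LPS) and 19.3 and 14.7 (KO LPS), the order seen in the sterol enzymes (KO LPS minus WT LPS -1.61, SE 0.19, adjusted p 6.12e-04). Por, the electron donor of Cyp51 and Sqle, fell in both genotypes (-1.28, SE 0.15, adjusted p 7.61e-05, and -1.85, SE 0.19, adjusted p 3.01e-05). Rdh11, a retinol dehydrogenase, rose in both (1.44, SE 0.17, adjusted p 8.34e-05, and 1.23, SE 0.21, adjusted p 0.00122) and was not called between the LPS groups (-0.20, adjusted p 0.601). Por (-0.60, adjusted p 0.0400) and Cyb5b, an outer mitochondrial cytochrome b5 (-0.75, adjusted p 0.0415), were lower in KO LPS but lost the call without either WT LPS library (adjusted p 0.163 and 0.233, and 0.0572 and 0.307), without KO LPS replicate 2 (0.225 and 0.144) and with no filter (0.0916 and 0.154), Por also without either WT M0 library (0.0571 and 0.0576) and with the compared groups alone (0.0593), and Cyb5b without KO LPS replicate 1 (0.136).

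No gene of SREBP processing or the non-sterol branches was called between the LPS-treated groups, where 4.59% of all genes were higher and 2.58% lower, which makes counts of 0 in lists of this length close to the background. Of 11 SREBP processing, degradation and partner genes, 0 rose and 3 fell with LPS in wild type, 0 and 2 in the knockout, and 0 of 11 were called between KO LPS and WT LPS by limma (1 at an unadjusted p under 0.05; median -0.02). Lpin1, a lipid phosphatase known to restrain nuclear SREBP, fell from 9.26 and 11.6 TPM in WT M0 and 12.5 in KO M0 to 0.467 and 1.46 (WT LPS) and 0.612 and 0.354 (KO LPS) (-2.58, SE 0.27, adjusted p 3.35e-05, and -3.19, SE 0.34, adjusted p 4.08e-05). Nfya, a subunit of NF-Y, fell in both genotypes (-0.70, SE 0.15, adjusted p 0.00314, and -0.79, SE 0.18, adjusted p 0.00575). Nfyc, another subunit, fell in wild type (-0.52, adjusted p 0.0292), a call lost without any of the WT M0 or WT LPS libraries (0.0569 to 0.172), with median-ratio scaling (0.132) and with quantile normalization (0.0572). Rnf145, Lpin1 and Nfyb had the lowest p in KO LPS vs WT LPS, with log2 differences of 0.55, -0.36 and -0.17 and adjusted p of 0.103, 0.53 and 0.666. Of 13 genes of the ubiquinone, dolichol and prenylation branches, 1 fell in each genotype, Icmt, which methylates prenylated proteins (-0.93, SE 0.18, adjusted p 0.00196, and -1.19, SE 0.22, adjusted p 0.00187), and 0 were called between the LPS-treated groups by limma (1 at an unadjusted p under 0.05; median -0.12). Rabggtb, a prenyl transferase subunit, had a change of 0.47 (adjusted p 0.0513) in wild type, which passed with both other scalings (0.0120 and 0.0272), without either KO LPS library (0.0472 and 0.0477), at a mean TPM of at least 5 (0.0488) and with the compared groups alone (0.0461).

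Of 24 other fatty acid and glycerolipid genes, 19 were tested; 7 rose and 4 fell with LPS in wild type, 5 and 4 in the knockout, and 1 was higher and 2 lower in KO LPS than in WT LPS. The background shares in the same order were 15.0% and 29.6%, 13.8% and 24.3%, and 4.59% and 2.58%. Acsl1, which activates long-chain fatty acids, rose from 98.2 and 90.2 TPM in WT M0 and 106 in KO M0 to 1418 and 1598 (WT LPS) and 1268 and 1296 (KO LPS), and its KO LPS minus WT LPS difference was -0.23 (SE 0.15, adjusted p 0.447). Me1, which supplies NADPH, rose in both genotypes (2.27, SE 0.19, adjusted p 5.53e-06, and 2.38, SE 0.23, adjusted p 2.28e-05). Dgat2, the last enzyme of triglyceride synthesis, went the other way from the sterol enzymes: it was at 1.95 and 1.75 TPM (WT M0), 2.15 (KO M0), 12.6 and 15.1 (WT LPS) and 36.7 and 40.5 (KO LPS), higher in KO LPS than in WT LPS by 1.42 (SE 0.19, adjusted p 0.00153). Acsl3, another fatty acid activating enzyme, was at 8.85 and 11.8 TPM (WT M0), 11.5 (KO M0), 14.5 and 17.6 (WT LPS) and 3.90 and 5.32 (KO LPS), with KO LPS lower than WT LPS (-1.61, SE 0.22, adjusted p 0.00165, and 0.0522 with no filter). Mid1ip1, which stimulates acetyl-CoA carboxylase, was lower in KO LPS as well (-1.02, SE 0.17, adjusted p 0.00497).

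Some genes of oxysterols and their receptor LXR were higher in KO LPS. Of 7, 6 were tested: 2 rose and 3 fell in wild type, 1 rose and 3 fell in the knockout, and 3 were higher in KO LPS than in WT LPS, against 15.0% and 29.6%, 13.8% and 24.3%, and 4.59% of all genes. The other 3, with the LXR genes themselves among them, had KO LPS minus WT LPS differences below 0 (lowest -0.37) and were not called. Ch25h makes 25-hydroxycholesterol, an oxysterol known to hold SREBP precursors inactive. It was at 11.02 and 9.49 TPM (WT M0), 10.2 (KO M0), 80.9 and 48.8 (WT LPS) and 222 and 283 (KO LPS). KO LPS was above WT LPS, and both were above the unstimulated libraries. Ch25h rose by 2.51 in wild type (SE 0.24, adjusted p 1.49e-05) and by 4.48 in the knockout (SE 0.29, adjusted p 1.81e-06), and the difference between KO LPS and WT LPS was 1.98 (SE 0.24, adjusted p 6.97e-04, and 0.0502 with no filter). The difference between the LPS changes was 1.98 (adjusted p 0.0360) and lost its call without WT M0 replicate 1 (0.202), WT M0 replicate 2 (0.106), WT LPS replicate 2 (0.0615) or either KO LPS library (0.0549 and 0.0998), with both other scalings (0.0987 and 0.0726), with a pseudocount of 0.1 (0.0565) and with no filter (0.240). Abcg1, a cholesterol exporter, and Cyp27a1, a sterol hydroxylase, fell in both genotypes: the log2 changes were -3.23 and -2.55 for Abcg1 and -3.97 and -3.21 for Cyp27a1, all with adjusted p of at most 2.82e-05. They were higher in KO LPS than in WT LPS by 0.87 (adjusted p 0.0321) and 0.73 (adjusted p 0.0401), calls lost without any of the LPS libraries (adjusted p 0.0501 to 0.217 and 0.0735 to 0.237), with the compared groups alone (0.0527 and 0.0907), with quantile normalization (0.0653 and 0.0851) and with no filter (0.144 and 0.102), Cyp27a1 also without either WT M0 library (0.0690 and 0.0697).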

How the data were processed

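The authors deposited a table of TPM per gene for each of the 7 libraries, 23337 genes each, summing to 1000000; per the submitters' processing notes the reads were placed on mm10. For the aligner, counter, annotation and strand setting, the sources used here give nothing. TPM keep no depth, so depth is unknown and no counting intervals are given. A model of 4 group means was fitted to the 7 libraries (limma 3.58.1, R 4.3.3) on log2(TPM + 1), for genes averaging 1 TPM or more. It used a mean-variance trend (3 residual degrees of freedom, prior 7.3). Benjamini-Hochberg adjustment at 0.05 was made over 11096 genes within each of 5 comparisons, and not across the comparisons. The steps were tested on simulated data. The spread of KO M0, with 1 library, is taken from the other groups. Alternatives were median-ratio scaling, quantile normalization, a pseudocount of 0.1, no filter, a mean TPM of at least 5, an adjusted p of 0.01, leaving out each library, the compared groups alone, autosomal genes, a replicate block and the sterol arm without X-linked genes.

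The members and lists were chosen with earlier results of these data known. The rule for named genes took all members, and from each of 5 other pathway lists the up to 3 genes with the smallest p in WT LPS vs WT M0 and in KO LPS vs WT LPS, with Tgm2, Xist and Y-linked genes as label checks; Ctsb was named after its values were seen. Markers of 7 cell types were read: macrophage and adipocyte (given in the report), neutrophil (summed TPM 0 to 12.0), stromal (21.0 to 41.6), endothelial (6.33 to 39.3), lymphocyte (0.0540 to 0.277) and dendritic cell (0.976 to 1.57). The stromal sum hides opposite moves. Col1a1 was at 13.2 and 18.6 TPM (WT M0), 10.4 (KO M0), 0 and 0 (WT LPS) and 1.18 and 1.56 (KO LPS), and Col1a2 and Col3a1 were ordered alike. Pdgfrb was at 1.81 to 2.29 TPM without LPS and 18.2 to 27.7 with it. The neutrophil sum was almost all Camp, at 0 to 0.906 TPM without LPS and 9.14 to 12.0 with it. The part of these cells in the results was not tested. Coordinates and promoter windows are from RefSeq GRCm38.p6.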

Additional observations from a re-analysis of the deposited data

Results flagged for a closer look

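For 13 genes the LPS change itself differed between the genotypes by limma's interaction test (knockout change minus wild-type change, log2 scale, adjusted p under 0.05). The value was -1.95 for Acat2, -2.24 for Hmgcs1 and -2.25 for Idi1 among the mevalonate steps. At the squalene and lanosterol steps it was -2.34 for Fdft1, -2.46 for Sqle and -2.03 for Lss. After lanosterol it was -2.47 for Cyp51, -2.45 for Msmo1, -1.81 for Nsdhl, -1.67 for Hsd17b7 and -2.43 for Sc5d. Outside the sterol enzymes it was -2.04 for Insig1 and -3.48 for Scd2. In each case the knockout change was the lower one. These values rest on 1 KO M0 library and on the WT LPS libraries whose Xist goes against their label, and the part of either in them was not tested.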

How the results depend on the processing

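No called change reversed its direction under any alternative. Of the calls, 23 of 27 held under every refitted alternative in WT LPS vs WT M0, 11 of 14 in KO LPS vs KO M0, 13 of 22 in KO LPS vs WT LPS and 0 of 13 in the interaction; the cause of the losses was not tested.

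In WT LPS vs WT M0, sterol enzymes lower numbered 1, and 0 without the X-linked members or with autosomal genes alone. SREBP control genes lower numbered 3, and 1 to 3 with a library left out. Fatty acid genes lower numbered 1, and 0 at an adjusted p of 0.01, with median-ratio scaling or with no filter, and 0 to 1 with a library left out. In KO LPS vs KO M0, sterol enzymes higher numbered 5, and 8 with median-ratio scaling or quantile normalization; control genes higher numbered 0, and 1 with median-ratio scaling and 0 to 1 with a library left out. In KO LPS vs WT LPS, control genes lower numbered 2, and 1 with no filter; fatty acid genes lower numbered 5, and 3 at 0.01, 2 with no filter and 2 to 5 with a library left out. In the interaction, sterol enzymes lower numbered 11, and 5 at 0.01, 0 with no filter and 0 to 11 with a library left out. Control genes lower there numbered 1, and 0 with no filter and 0 to 2 with a library left out. Fatty acid genes lower numbered 1, and 0 at 0.01, 2 with median-ratio scaling, 0 with no filter and 0 to 2 with a library left out.

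Over all genes, KO LPS vs WT LPS had 509 higher and 286 lower, against 213 and 94 with no filter, 238 and 124 at 0.01, 256 to 514 and 122 to 286 with a library left out, and 327 higher at a mean TPM of at least 5. The interaction had 94 higher and 58 lower, against 1 and 9 with no filter, 54 and 38 with a pseudocount of 0.1, 13 and 15 at 0.01, and 57 higher at a mean TPM of at least 5; without WT M0 replicate 1 it had 0 and 6. At 0.01 the genes lower with LPS numbered 2181 in place of 3284 in wild type and 1556 in place of 2700 in the knockout. KO M0 vs WT M0 had 0 higher and 1 lower, against 19 higher with no filter, 2 lower with a pseudocount of 0.1, 3 and 5 with the compared groups alone and 1 and 2 without WT M0 replicate 2.

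The replicate block used the label numbers, without KO M0, which has none. Same-numbered libraries deviated together with correlations of 0.08 (WT M0 with WT LPS), 0.298 (WT M0 with KO LPS) and 0.181 (WT LPS with KO LPS), not all over 0.1, so the numbers were not taken to pair the libraries, and a shared batch was not tested. With the replicate block, 24 members rose and 5 fell in WT LPS vs WT M0 (22 and 5 without it; Insig2 at 0.0439 and Acaca at 0.0341 passed), and 24 were lower in KO LPS vs WT LPS (22 without it; Pmvk at 0.0268 and Srebf2 at 0.0379 passed).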
